A study of Sus scrofa with 12 samples.

Results

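The 6 libraries described here are the pig arterial endothelial cells (ECs) that were kept for 48 h under a laminar shear stress of 30 dyne/cm2, the physiological level of the study, out of 12 libraries that also cover 2 and 80 dyne/cm2. They were chosen by their labels alone, and no value measured in them entered the choice. The cultures fall into 2 sets at the same shear stress, set 1 and set 2, and each set holds 1 culture from each of 3 donor pigs, so every donor was cultured 2 times. Replicate number and donor code in the labels, together with the study's methods, tie each culture to its donor, and all were primary cells for which no treatment other than flow is named.

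Some limits of these cells as a model come from the descriptions themselves. The labels call the cells aortic, whereas the methods describe coronary arteries of 8-month-old slaughterhouse pigs, and the sex of the animals is not given. The labels also place the physiological cultures in 2 kinds of flow chamber, one for comparison with low and the other for comparison with supra-high shear stress, while the methods name 1 kind. Which set ran in which chamber is not given in the sources used here. The cells grew on gelatin in medium with serum and heparin, and the 2 cultures of a donor are not 2 animals.

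ECs line the lumen of every vessel. They carry a common program of junction and receptor genes, to which arteries, veins, capillaries and lymphatics each add their own. Steady laminar flow keeps arterial ECs elongated and quiescent, in part through flow-responsive transcription factors such as KLF2 and KLF4, and the Notch pathway with its ligand DLL4 and targets HEY1 and HEY2 is the best known regulator of arterial identity. The endothelium also builds its own basement membrane and secretes regulators of clotting, vascular tone and leukocyte traffic.

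RNA was counted as reads per gene, with 32020939 to 41058902 counted reads in a library (median 35192313). Levels are given as CPM, the counts of a gene in 1000000 counted reads, on library sizes scaled by TMM, whose factors lay between 0.979 and 1.018. Long transcripts collect more reads than short ones and no transcript lengths were at hand, so the order of CPM across genes is an order of reads, not of molecules. Of 21153 genes, 10598 (50.1%) reached at least 1 CPM in all 6 libraries and are called expressed here; 4436 had no read in any of the 6. A count of 0 allows up to 3 counts, and a gene at or under 3 counts in every library, which is 0.0731 to 0.0937 CPM depending on depth, was taken as being at the floor. As these are bulk samples, a low level may come from few cells or from little RNA per cell, and the 2 cannot be told apart.

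The reads were spread over a wide range of levels. The 100 genes with a mean above 1000 CPM held 24.5% of all reads, 1993 genes between 100 and 1000 CPM held 49.1%, and 6349 genes between 10 and 100 CPM held 25.1%. A further 2762 genes between 1 and 10 CPM shared 1.27%. The median expressed gene had a mean of 32.6 CPM.

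Matrix genes led the list of reads. FN1, which encodes fibronectin, the main adhesive glycoprotein of the provisional matrix, lies on chromosome 15, 117658158 to 117737145 (Sscrofa11.1), and had a lowest level of 25113, a median of 36449.7 and a highest of 60539.8 CPM. This 1 gene took 2.47% to 5.98% of the reads of a library, and its level was highest in the set 2 culture of donor 1. THBS1 followed with 8343 to 17456 CPM (median 11721); it encodes thrombospondin 1, a matricellular protein that activates latent TGF-beta. The intermediate filament gene VIM had 9189 to 14980.5 CPM (median 12058), the basement membrane heparan sulfate proteoglycan HSPG2 (perlecan) 7177 to 9882 CPM (median 8540.4), and tenascin C (TNC) 6537 to 12731 CPM (median 7400.3). The 10 genes with the most reads held 9.31% to 12% of a library (mean 10.1 ± 1.03%, SD, n = 6).

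Among the next genes in this order were ANXA2, a membrane-bound cofactor of plasmin generation, with 3826 to 5126 CPM (median 4382), and SPARC, a collagen-binding matricellular protein, with 2434 to 3721 CPM (median 3315). The cytoskeleton was represented by ACTG1 (2631 to 3771 CPM), FLNA (2544 to 3643 CPM) and SPTBN1 (2442 to 3886 CPM), which encode gamma-cytoplasmic actin, an actin crosslinker and a spectrin. PECAM1, the platelet-endothelial adhesion molecule, was itself the 13th gene in order of reads. ECE1, the protease that activates endothelin, had 2431 to 2946 CPM (median 2755) with a coefficient of variation (CV, SD over mean) of 7.2% over the 6 libraries, and the lysosomal precursor gene PSAP had the smallest CV of these 20 genes, 5.95%. FSTL1, ITGA5, GAPDH and S100A6 also belonged to the first 20, with means of 2959, 2819, 2723 and 2707 CPM, and 2 more identifiers of the first 20 carry no symbol in the gene table.

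**Figure D1:**
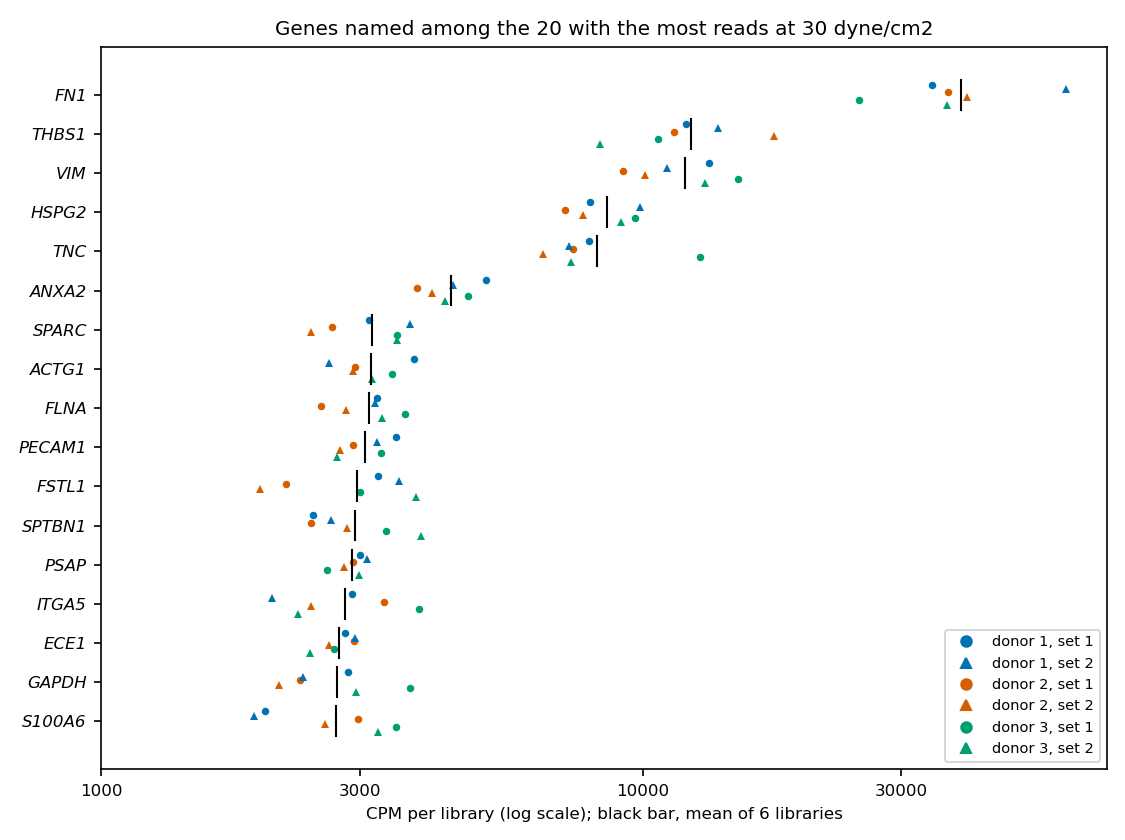
CPM in each of the 6 libraries (points, log axis; colour marks the donor and shape the set) and their mean (black bar) for the genes named in the text among the 20 with the most reads. FN1 stands alone between 25113 and 60540 CPM, and the points of PSAP lie closest together, with a CV of 5.95%.

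Libraries differed more between donors than between the cultures of 1 donor. On the log2 scale the 2 cultures of the same donor correlated at r = 0.988 to 0.994 across the tested genes (3 pairs), and cultures of different donors at 0.952 to 0.97 (12 pairs); these are descriptions across genes, which are not independent replicates. Of the summed squares of log2 CPM, 81.3% lay between donors, 10.9% between sets and 7.8% in the remainder. Each gene was tested for a difference between donors with edgeR's quasi-likelihood F test of the donor term, and was called at a Benjamini-Hochberg adjusted p under 0.05 with at least 2-fold between the highest and the lowest donor. Of 11453 genes that had at least 1 CPM in at least 2 libraries, 1049 (9.16%) were called. Each count of called genes in a group below is to be read beside this 9.16%. Split by the donor with the highest level, 2.28% of tested genes were called and highest in donor 1, 4.13% in donor 2 and 2.75% in donor 3; split by the lowest, 3.25% were lowest in donor 1, 2.26% in donor 2 and 3.65% in donor 3. The test measures donors against the spread between cultures of 1 donor, so it describes the cells of these 3 animals. Isolation and passage are not given per culture, and a donor difference cannot be told apart from a difference in these. The count fell to 435 when the set 1 culture of donor 2 was left out and to 513 without the set 2 culture of donor 2. The other 4 fits with 1 library less gave 922 to 1032. Below, a called gene kept its call in every fit with 1 library less in which it could be tested, unless the libraries that end it are named; these were left out singly, so that "without either donor 2 culture" stands for the 2 fits that each lack 1 of them.

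The endothelial label was checked against 5 markers, of which 4 could be matched and all 4 were expressed. PECAM1 had a lowest level of 2726, a median of 3076 and a highest of 3507 CPM. CDH5 (VE-cadherin, the adherens junction protein of endothelium) had 1337 to 2014 CPM (median 1774), TEK (the angiopoietin receptor TIE2) 395 to 532 CPM (median 482) and KDR (VEGF receptor 2) 32.4 to 125 CPM (median 74.3). None of these 4 was called different between donors, and the lowest KDR level was in the set 2 culture of donor 3. VWF is paired with no identifier in the gene table and was not analysed here. Of 34 endothelial genes written down, 27 could be matched and 26 were expressed; the exception, ADGRF5, was under 1 CPM only in the set 1 culture of donor 3.

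Among these, TM4SF1 had 1609 to 2869 CPM (median 2209), CD34 939.6 to 1245 CPM (median 1093) and the nitric oxide synthase gene NOS3 677 to 1701 CPM (median 1012). NOS3 makes the nitric oxide that relaxes the vessel wall, and it was lowest in the donor 2 cultures. TIE1 lay between 595 and 854 CPM, ENG between 530.5 and 938 and the protein C receptor gene PROCR between 514 and 1035. The transcription factor ERG, which maintains endothelial fate, was the steadiest of the list with a CV of 6.15% (379.8 to 457 CPM, median 409.9). Of 27 tested genes 3 were called: EMCN, GATA2 and ADGRL4. Without either donor 2 culture the count was 0. EMCN, which encodes endomucin, a sialomucin of the EC surface, had 49.6 and 20.6 CPM in donor 1, 12.1 and 12.6 in donor 2 and 151 and 79 in donor 3 and lost its call without either donor 2 culture (adjusted p up to 0.12). GATA2 had 65.9 and 73.6 CPM in donor 1, 30.1 and 30.8 in donor 2 and 47.6 and 61.7 in donor 3, and the call was lost without either donor 2 culture (adjusted p up to 0.0982). The call of ADGRL4 lost its call without set 1 donor 1, set 1 donor 2, set 2 donor 2 or set 2 donor 3 (adjusted p up to 0.137).

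All 15 matched arterial genes reached 1 CPM in all 6 libraries, and 5 of the 15 were called, against 9.16% over all tested genes. Each of the 5 had its lowest level in donor 3, and 3.65% of all tested genes were called with their lowest level in that donor. GJA5, which encodes connexin 40, the gap junction protein of arterial ECs, lies on chromosome 4, 99854129 to 99871288. It had 1925 and 1808 CPM in donor 1, 1450.1 and 1005 in donor 2 and 131 and 214 in donor 3. The donor 3 cultures stood below the other 4 with no overlap, a log2 difference of 3.41 between the highest and lowest donor (edgeR adjusted p = 0.00358; with 1 library less, at most 0.0197). UNC5B, a netrin receptor of arterial and tip ECs, had 46.2 and 28.6 CPM in donor 1, 11.6 and 8.83 in donor 2 and 5.03 and 3.7 in donor 3 (log2 difference 3.08, edgeR adjusted p = 0.00401; at most 0.0252 with 1 library less).

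The ephrin ligand EFNB2, the classical arterial marker, had 1083 and 906 CPM in donor 1, 614 and 409 in donor 2 and 301 and 459 in donor 3, with 1 donor 2 value below 1 donor 3 value, and the call was lost without set 1 donor 1, set 1 donor 2, set 1 donor 3, set 2 donor 1 or set 2 donor 2 (adjusted p up to 0.117). DLL4 had 215 and 58.7 CPM in donor 1, 87.1 and 49.6 in donor 2 and 15.9 and 16.1 in donor 3. Its call was lost without set 1 donor 2, set 1 donor 3, set 2 donor 2 or set 2 donor 3 (adjusted p up to 0.138). HEY1 had 35.8 and 25.1 CPM in donor 1, 38.3 and 25.2 in donor 2 and 6.29 and 11.5 in donor 3, all donor 3 values below the rest, and lost its call without set 1 donor 1, set 1 donor 2, set 1 donor 3 or set 2 donor 2 (adjusted p up to 0.109). The count over the list was 2 without set 1 donor 2, set 1 donor 3 or set 2 donor 2 and 4 in the other 3 fits.

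The other 10 arterial genes were not called. SEMA3G, a class 3 semaphorin, had 554 to 752 CPM (median 670.04), the kinase gene BMX 445 to 782 CPM (median 553), NOTCH4 272 to 457 CPM (median 341) and the Notch target HEY2 79 to 116 CPM (median 90.4). These 4 had CVs of 13.4%, 20.2%, 22.3% and 14.4%. In contrast to HEY1, HEY2 was not called, and in donor 3 it had 79 and 93.7 CPM. JAG1 and GJA4 were uneven between the sets. JAG1, another Notch ligand, had 258, 285 and 209.97 CPM in the set 1 cultures of donors 1 to 3 and 738, 249.7 and 1193 in set 2. GJA4, which encodes connexin 37, had 15.3, 11.9 and 16.8 CPM in set 1 and 113, 23.9 and 147 in set 2, so that for both genes the set 2 cultures of donors 1 and 3 stood well above the other 4. In edgeR's test of set 2 against set 1 with the donor as a block, JAG1 (adjusted p = 0.238) and GJA4 (adjusted p = 0.1) were not called.

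Venous and lymphatic genes gave a mixed picture. SELP, the P-selectin gene, whose product ECs store and bring to the surface to capture leukocytes, had 456 to 985 CPM (median 696). EPHB4, the venous receptor of ephrin B2, had 105 to 183 CPM (median 141), FLRT2 115 to 249 CPM (median 161) and NRP2, a semaphorin and VEGF-C co-receptor, 50.8 to 140 CPM (median 62.2). NR2F2, the nuclear receptor (COUP-TFII) that specifies venous fate, had 2.09 to 8.24 CPM (median 4.31), and ACKR1, a chemokine-binding receptor of venules, had 0 counts in all 6 libraries. Of 6 matched venous genes 5 were expressed and 2 were called, NRP2 (66.3 and 58 CPM in donor 1, 52.5 and 50.8 in donor 2 and 140 and 108 in donor 3) and FLRT2 (148 and 173 CPM in donor 1, 115 and 127 in donor 2 and 249 and 238 in donor 3), both highest in donor 3. NRP2 kept its call (edgeR adjusted p = 0.00595; at most 0.0457 with 1 library less); FLRT2 lost its call without set 1 donor 2 or set 1 donor 3 (adjusted p up to 0.0597). NR2F2 also had its 2 highest values in donor 3, 8.06 and 8.24 CPM, but was not called.

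The defining lymphatic genes were low or at 0. PROX1, the transcription factor that sets lymphatic fate, had 0.0307 to 0.647 CPM (median 0.289), the hyaluronan receptor LYVE1 0.0833 to 2.64 CPM (median 0.286), PDPN 0 to 0.358 CPM (median 0.0535), RELN 0.167 to 0.667 CPM (median 0.256) and the VEGF receptor FLT4 0.572 to 1.07 CPM (median 0.829). CCL21 had 0 counts in all 6. LYVE1 rose above 1 CPM in 1 library, the set 1 culture of donor 3. Of the same list, ITGA9 (11.6 to 32.7 CPM, median 24.7) and FOXC2 (7.07 to 14.9 CPM, median 10.7), were expressed in all 6, and both are also used outside lymphatics. Of 9 lymphatic genes, 3 were tested and ITGA9 was called, a call that no fit with 1 library less retained (adjusted p up to 0.157).

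Among 13 matched genes of capillaries and of organ-specific endothelium, 4 were expressed and 7 were at the floor. Those expressed were RGCC (62 to 190.4 CPM, median 123), NPR3 (26.4 to 173 CPM, median 53.8), NFATC1 (28.2 to 134 CPM, median 59.4) and the amino acid transporter gene SLC38A5 (7.79 to 17.3 CPM, median 12.3). MFSD2A, the lipid transporter of the blood-brain barrier, had 0.565 to 7.22 CPM (median 3.48). FABP4 and BTNL9 had 0 counts, and GPIHBP1, CA4 and LPL reached at most 0.174, 0.0599 and 0.0597 CPM.

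**Figure D2:**
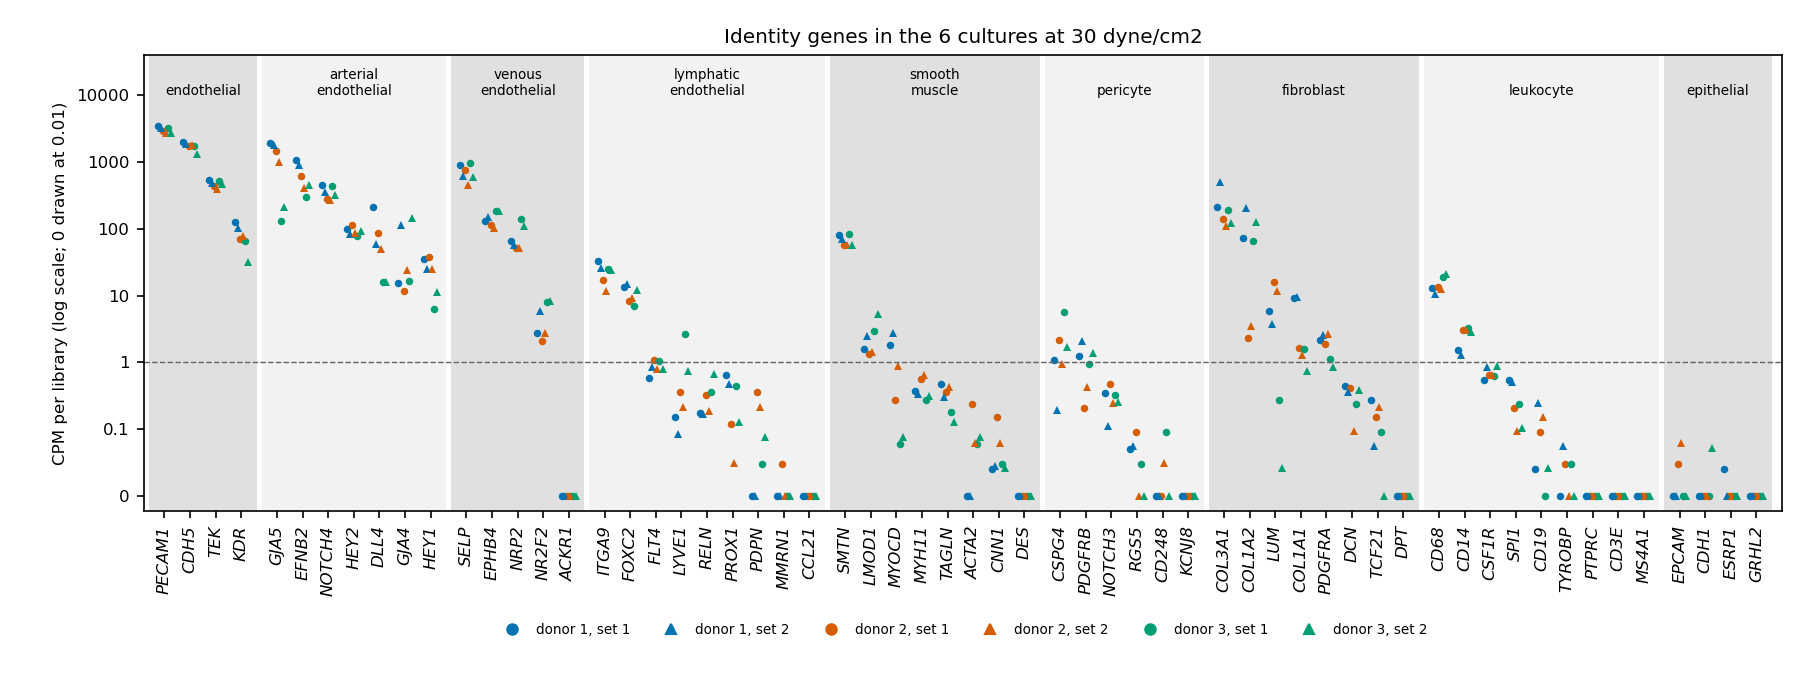
CPM of identity genes in each of the 6 libraries (log axis, 0 drawn at 0.01; colour marks the donor, shape the set, and the dashed line 1 CPM). The endothelial, arterial and venous genes drawn are a selection from their lists. Those drawn from the endothelial and arterial lists lie between 6.29 and 3507 CPM. Matched members not drawn go lower, the endothelial ADGRF5 down to 0.629 CPM. The lymphatic, smooth muscle, pericyte, fibroblast, leukocyte and epithelial lists are drawn with every matched gene. In these, ITGA9, FOXC2, SMTN, LMOD1, COL3A1, COL1A2, CD68 and CD14 lie above 1 CPM in all 6 libraries.

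Genes of the cells that surround ECs in the artery wall were mostly near the floor. Of 8 smooth muscle genes, DES had 0 counts in all 6 libraries and ACTA2, CNN1, TAGLN and MYH11 reached at most 0.239, 0.149, 0.473 and 0.644 CPM. ACTA2, CNN1 and MYH11 encode the contractile proteins that define this cell. SMTN was expressed at 56.5 to 83.1 CPM (median 64) and LMOD1 at 1.31 to 5.21 CPM (median 2.02). The summed level of the list was 60 to 86.6 CPM, nearly all of it from SMTN. MYOCD, the muscle co-activator myocardin, reached 2.75 CPM and was called, with 1.79 and 2.75 CPM in donor 1, 0.269 and 0.889 in donor 2 and 0.0599 and 0.077 in donor 3; it passed the filter through donor 1 alone. No pericyte gene was expressed in all 6: PDGFRB had 0.209 to 2.05 CPM (median 1.1), CSPG4 0.194 to 5.66 CPM (median 1.4) and RGS5 at most 0.0895 CPM, while KCNJ8 had 0 counts. PDGFRB was called, but in no fit with 1 library less (adjusted p up to 0.258).

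Fibroblast genes were uneven. DPT had 0 counts, and DCN, TCF21 and PDGFRA, which mark the fibroblast itself, reached at most 0.448, 0.274 and 2.67 CPM. Against these, the fibrillar collagen gene COL3A1 had 109 to 499.7 CPM (median 167) and COL1A2 had 72.6 and 204 CPM in donor 1, 2.33 and 3.5 in donor 2 and 65.1 and 125 in donor 3. COL1A2 was called (log2 difference 5.56, edgeR adjusted p = 0.00901), and the call was lost without either donor 2 culture (adjusted p up to 0.0988). Its partner COL1A1, which encodes the other chain of type I collagen, had 9.31 and 9.41 CPM in donor 1, 1.61 and 1.29 in donor 2 and 1.56 and 0.744 in donor 3 (edgeR adjusted p = 0.005), and LUM, a small leucine-rich proteoglycan gene, 5.8 and 3.69 CPM in donor 1, 16.1 and 11.8 in donor 2 and 0.27 and 0.0257 in donor 3 (edgeR adjusted p = 0.00432). The 3 called genes (of 5 tested and 8 matched) did not share 1 high donor: COL1A1 and COL1A2 were highest in donor 1 and LUM in donor 2. The summed level of the 8 genes was 129 to 719.6 CPM, with the highest sum in the set 2 culture of donor 1. Whether other cells in the cultures contribute to these values was not tested; of the 8 genes, DPT, DCN and TCF21 were below 1 CPM in all 6 libraries, COL3A1 and COL1A2 above it in all 6, and PDGFRA, COL1A1 and LUM above it in some.

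Blood cell genes were absent or low. PTPRC, the common leukocyte antigen CD45, the T cell gene CD3E and the B cell gene MS4A1 had 0 counts in all 6 libraries, as did HBB. CD68, a lysosomal protein gene of macrophages that many cells also use, had 10.6 to 20.7 CPM (median 13.3) and CD14 had 1.3 to 3.26 CPM (median 2.95); CD14 was called, and its call was lost without set 1 donor 1, set 1 donor 2, set 1 donor 3, set 2 donor 1 or set 2 donor 2 (adjusted p up to 0.135). SPI1 and CSF1R reached at most 0.548 and 0.873 CPM. The platelet glycoprotein gene GP9 had 3.06 to 5.19 CPM (median 4.26). All 4 matched epithelial genes were at the floor, with EPCAM at most 0.0613 and CDH1 at most 0.0513 CPM, as were the adipocyte genes ADIPOQ, LEP and PLIN1. The cardiomyocyte genes MYH6 and TNNT2 reached at most 0.153 and 0.0597 CPM, and the 4 Schwann cell and glia genes together at most 0.507 CPM.

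HOX genes, which keep a record of position along the body axis into adult life, were expressed from 3 of the 4 clusters. Of 34 matched HOX genes, 18 were expressed and 10 were at the floor. Of 20 tested, 4 (20%) were called, against 9.16% over all tested genes. All 9 matched HOXC genes were at the floor, HOXC4 and HOXC6 with at most 0.0298 and 0.0555 CPM. In the A cluster HOXA5 had 21.8 to 102 CPM (median 38.4), and HOXA7 reached 22.9 CPM. In the B cluster all of HOXB2 to HOXB8 were expressed, led in reads by HOXB7 (15 to 19.9 CPM, median 16.9), while HOXB1 had 0 counts and HOXB13 reached 0.25 CPM. In the D cluster HOXD8 had 21.8 to 41 CPM (median 32.9), and HOXD10 to HOXD12 remained under 1 CPM.

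The posterior end of the A cluster differed between donors. HOXA9 had 23.2 and 44.8 CPM in donor 1, 8.21 and 9.17 in donor 2 and 8.09 and 9.57 in donor 3, HOXA10 9.23 and 21.5 CPM in donor 1, 1.76 and 1.99 in donor 2 and 1.89 and 1.75 in donor 3 and HOXA11 11.4 and 19.1 CPM in donor 1, 4.12 and 4.48 in donor 2 and 6.14 and 7.62 in donor 3, with both donor 1 cultures above the other 4 for each of the 3 genes. HOXA10 was called (log2 difference 3.06, edgeR adjusted p = 0.00722) and lost its call without set 1 donor 2 (adjusted p up to 0.0506); HOXA9 and HOXA11 were both called and lost it without set 1 donor 2 or set 2 donor 2 (adjusted p up to 0.075 and 0.118). HOXD1, at the other end of its cluster, was highest in donor 2 and lowest in donor 3 (17.7 and 21 CPM in donor 1, 19.6 and 28.9 in donor 2 and 7.04 and 9.34 in donor 3), and lost its call without set 1 donor 3 or set 2 donor 2 (adjusted p up to 0.0682). That made 4 calls among 20 tested HOX genes, and 1 when either donor 2 culture was left out.

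Transcription factors of the heart and outflow tract were divided between expressed and silent. GATA6 had 67.2 to 121 CPM (median 83.6), NFATC1, the endocardial factor, 28.2 to 134 CPM (median 59.4), HAND2 19.4 to 71.5 CPM (median 34.3), TBX18 14 to 28.7 CPM (median 16.6) and TBX2 6.98 to 13.5 CPM (median 9.14). NKX2-5, TBX20, ISL1 and MEOX2 had 0 counts in all 6 libraries, and GATA4 and TBX5, which drive cardiac muscle genes, reached at most 0.077 and 0.0307 CPM. TBX1, a factor of the pharyngeal arches and outflow tract, was called, with 2.99 and 3.3 CPM in donor 1, 27.7 and 34.3 in donor 2 and 109.6 and 142 in donor 3, a log2 difference of 5.34 (edgeR adjusted p = 0.000315; at most 0.0078 with 1 library less). The 3 donors did not overlap and the 2 cultures of each lay close together. MEOX1, a mesoderm homeobox gene, reached 1 CPM in donor 2 alone (0.0498 and 0.0278 CPM in donor 1, 16.6 and 9.48 in donor 2 and 0.359 and 0.128 in donor 3). GATA5 reached it in donor 1 alone (2.86 and 5.13 CPM in donor 1, 0.119 and 0.153 in donor 2 and 0.0899 and 0.0513 in donor 3). These 3 were the called genes of 8 tested (37.5%, against 9.16% over all tested genes) and 17 matched. MEOX1 and GATA5 passed the filter through 1 donor, so no excess is read from this count.

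**Figure D3:**
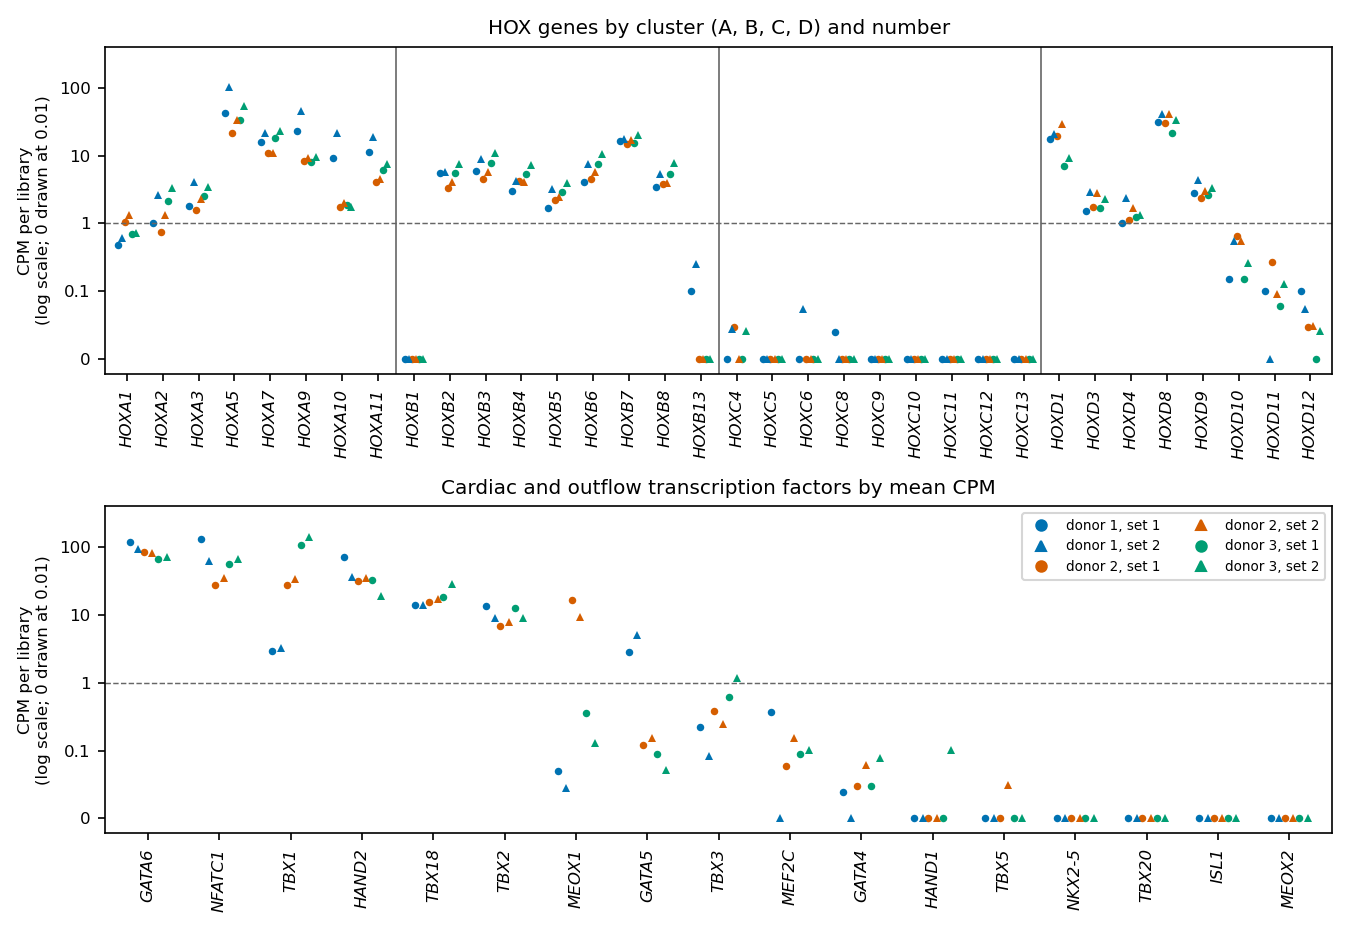
CPM per library (log axis, 0 drawn at 0.01; colour marks the donor, shape the set) of the matched HOX genes by cluster and number (top) and of cardiac and outflow transcription factors in order of mean CPM (bottom). The HOXC genes lie at or near 0, HOXA9 to HOXA11 are highest in donor 1, and TBX1 separates the 3 donors from 2.99 to 142 CPM.

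Transcription factors of flow and of the endothelium had a median CV of 17.8% over the 23 members with a mean of at least 10 CPM. Of 26 matched genes 23 were expressed, and 1 of 24 tested was called, 0 without either donor 2 culture and 2 or 3 in the other fits with 1 library less. The flow-responsive factors KLF2 and KLF4 had 109.8 to 185 CPM (median 156) and 168 to 254 CPM (median 240.3), each lowest in the donor 2 cultures, and KLF6 had 100.3 to 166 CPM (median 129). HIF1A had 736 to 1189.9 CPM (median 1023) and NFE2L2, the regulator of antioxidant genes, 159 to 181 CPM (median 166) with a CV of 4.96%. YAP1 and WWTR1 (TAZ), co-activators that respond to stretch and flow, had 58 to 67 CPM (median 60.7) and 113 to 133 CPM (median 126). EPAS1, which encodes the hypoxia-inducible factor HIF-2 alpha, was the called gene, with 647 and 531 CPM in donor 1, 1495 and 1034 in donor 2 and 414 and 586 in donor 3, and lost its call without either donor 2 culture (adjusted p up to 0.152). ID1 was at or near 0 (at most 0.0747 CPM) while its relative ID3 had 153 to 204 CPM (median 162); both genes are targets of BMP signalling.

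Receptors were described by class. Of 34 receptor tyrosine kinases, all matched, 21 were expressed. The calls, 7 of 27 tested, were 25.9%, against 9.16% over all tested genes. ROR1, 1 of the 7, lost its call in every fit with 1 library less in which it could be tested. It passed the filter through the donor 3 cultures alone, so no excess is read from the 7 calls. Those with the most reads were TIE1, TEK, EPHA2 (232 to 469 CPM, median 332), AXL (198 to 335 CPM, median 273), FLT1 (198 to 325 CPM, median 261), KIT (79.3 to 333 CPM, median 235) and FGFR1 (142 to 231 CPM, median 181). FLT1 is the decoy-like VEGF receptor, AXL binds GAS6 and KIT is the receptor of stem cell factor, whose gene KITLG was expressed too (403 to 771 CPM, median 569). ERBB4 and EPHB6 had 0 counts and EGFR at most 0.0555 CPM, whereas ERBB2 had 29.6 to 42.7 CPM (median 37.6). Of 27 tested, 7 were called, and the count lay between 1 (without set 2 donor 2) and 5 (without set 1 donor 3) with 1 library less. RET, a receptor of neurotrophic ligands, had 0.946 and 0.444 CPM in donor 1, 1.4 and 0.705 in donor 2 and 15.7 and 15.8 in donor 3 and kept its call (edgeR adjusted p = 0.00241). INSR, the insulin receptor gene, had 32.3 and 11.4 CPM in donor 1, 5.52 and 4.63 in donor 2 and 7.19 and 5.21 in donor 3, and its call was lost without set 1 donor 1, set 1 donor 2, set 1 donor 3, set 2 donor 2 or set 2 donor 3 (adjusted p up to 0.171).

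Receptors of the TGF-beta and BMP family came next. All 12 were tested and 10 expressed. TGFBR2 had 1530.1 to 2007 CPM (median 1849) with a CV of 12%, BMPR2 290.1 to 385 CPM (median 350.2), ACVRL1 (ALK1, the endothelial type I receptor for BMP9) 148 to 304 CPM (median 247) and TGFBR1 43.7 to 53 CPM (median 48.9). The 6 members with a mean of at least 10 CPM had a median CV of 11.9%, against 12% over all 8442 genes above that level. TGFBR3 was the 1 gene called, and no fit with 1 library less retained it (adjusted p up to 0.149). Of the Notch receptors, NOTCH2 had 66.6 to 114 CPM (median 79.2) beside NOTCH4, and NOTCH3, the receptor of mural cells, reached 0.477 CPM; NOTCH1 is not paired with an identifier.

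Of 43 matched G protein-coupled receptors, 16 were expressed and 16 stayed under 1 CPM in all 6 libraries. The genes with the most reads were ADGRG1 (GPR56, 573 to 853 CPM, median 693), FZD4, a receptor of norrin and Wnt (532 to 838 CPM, median 701), CALCRL, the adrenomedullin and CGRP receptor (340.3 to 472 CPM, median 378), S1PR1, the sphingosine 1-phosphate receptor that tightens the barrier (104 to 328 CPM, median 169.8), ADGRL4 (78.1 to 318 CPM, median 133) and F2R, the thrombin receptor PAR1 (88.7 to 199.7 CPM, median 137). The endothelin receptors were low: EDNRB, the endothelial type, had 0 to 2.73 CPM (median 1.96) and EDNRA at most 0.0298 CPM. EDNRB was called, lowest in donor 1 (0.199 and 0 CPM), and its call was lost without either donor 2 culture (adjusted p up to 0.0939). S1PR3, AGTR1 and ADRB1 were also at or near 0, at most 0.124, 0.124 and 0 CPM. The beta-2 adrenergic receptor and 5 other receptors written down had no identifier.

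Of 24 tested G protein-coupled receptor genes, 12 were called, against 9.16% over all tested genes. CALCR, 1 of the 12, passed the filter through the donor 3 cultures alone, so no excess is read from this count. The call of CALCR was lost in every fit with 1 library less in which it could be tested. S1PR1 had 328 and 261 CPM in donor 1, 171 and 168 in donor 2 and 115 and 104 in donor 3 (log2 difference 1.4, edgeR adjusted p = 0.0039), and ACKR3, the scavenging receptor of CXCL12, 201 and 163 CPM in donor 1, 127 and 127 in donor 2 and 79.7 and 69.7 in donor 3 (log2 difference 1.26, edgeR adjusted p = 0.00553). Both were lowest in donor 3 and highest in donor 1, with no overlap between donors. F2RL1, the protease receptor PAR2, had 9.36 and 8.19 CPM in donor 1, 44.3 and 14.9 in donor 2 and 3.56 and 1.93 in donor 3, and the call was lost without set 1 donor 2 or set 2 donor 3 (adjusted p up to 0.0628). ADGRL2, a latrophilin, ran in the other direction with 0.622 and 0.25 CPM in donor 1, 3.04 and 4.23 in donor 2 and 7.73 and 9.24 in donor 3 (edgeR adjusted p = 0.00467). The number of called genes was 3 without set 1 donor 2, 4 without set 2 donor 2, and 9 or 10 in the other 4 fits with 1 library less.

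Cytokine and pattern receptors were broadly present, with 21 of 23 matched genes expressed. IL6ST, the shared gp130 chain, had 468 to 1169 CPM (median 799), IL13RA1 397 to 544 CPM (median 467), the TNF receptors TNFRSF1A and TNFRSF1B 96.1 to 131 CPM (median 104) and 122 to 172 CPM (median 130.5), IL1R1 93.2 to 156 CPM (median 123) and TLR4, the receptor of bacterial lipopolysaccharide, 79.9 to 196 CPM (median 101). IL1RL1, which binds IL-33, and TLR9 were at the floor. CSF2RB, the common beta chain for GM-CSF, IL-3 and IL-5, had 145 and 81.3 CPM in donor 1, 432 and 696 in donor 2 and 108 and 67.2 in donor 3 and lost its call without set 2 donor 2 (adjusted p up to 0.0707). IL6ST was also highest in donor 2, with 1142 and 1169 CPM there, and lost its call without either donor 2 culture (adjusted p up to 0.062). These were 2 of the 4 called genes among 21 tested, and that count was 2 without either donor 2 culture.

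Lipoprotein and scavenger receptors included VLDLR (308 to 539.8 CPM, median 377), the HDL receptor SCARB1 (159 to 208 CPM, median 178) and STAB1 (100.3 to 216 CPM, median 181). SCARF1, a scavenger receptor first known from ECs, had the lowest CV of its list, 5.34% (201 to 228 CPM, median 220.5). OLR1 (LOX-1, the receptor of oxidised LDL) was the 1 called gene of 9 tested, with 102 and 39.6 CPM in donor 1, 837 and 794 in donor 2 and 1023 and 706 in donor 3. Both donor 1 values lay below the other 4, but the call was lost without either donor 2 culture (adjusted p up to 0.0539). The macrophage receptors CD163 and MSR1 were at 0 and at most 0.3 CPM.

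Sensors of flow and integrins were well represented. The share called was 29.4% of tested flow sensors and channels and 21.4% of tested integrins, against 9.16% over all tested genes. PLXND1, a plexin that also acts as a force sensor, had 843 to 1326 CPM (median 894), the stretch-gated channel PIEZO1 578 to 844 CPM (median 661), the polycystins PKD1 and PKD2 298 to 368 CPM (median 323) and 136 to 249.9 CPM (median 205), and PIEZO2 4.85 to 10.1 CPM (median 8.03). TRPV4 had 2.27 to 7.28 CPM (median 4.62). KCNJ2, the inward-rectifier potassium channel of ECs, had 158 and 86 CPM in donor 1, 122 and 99.8 in donor 2 and 46 and 36.7 in donor 3 and lost its call without set 1 donor 2, set 1 donor 3, set 2 donor 2 or set 2 donor 3 (adjusted p up to 0.124); KCNMA1, a calcium-activated potassium channel, had 6.22 and 3.75 CPM in donor 1, 4.72 and 2.76 in donor 2 and 27.2 and 15.6 in donor 3 and lost its call without either donor 2 culture (adjusted p up to 0.0652). Of 17 tested genes 5 were called, 2 without set 1 donor 2, 1 without set 2 donor 2, 3 without set 2 donor 1 and 4 to 6 otherwise. Of 20 integrin genes 14 were expressed and 3 of 14 tested were called, 1 without either donor 2 culture and 2 in the other fits. ITGA5 (2068 to 3863 CPM, median 2671) and ITGB1 (1631 to 2323 CPM, median 1782), the subunits of the main fibronectin receptor, had the most reads, followed by ITGA3 (483 to 748 CPM, median 645), ITGA6 (369 to 1032 CPM, median 547) and ITGB5 (440.3 to 626 CPM, median 614). ITGA10, a collagen-binding subunit, had 45.1 and 68.6 CPM in donor 1, 32.3 and 35.2 in donor 2 and 110.05 and 178 in donor 3 and lost its call without either donor 2 culture (adjusted p up to 0.0881). Leukocyte integrins were low, ITGB2 at 1.24 to 2.72 CPM (median 1.49) and ITGA4 at most 0.077 CPM.

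In coagulation and fibrinolysis, the plasminogen activator genes PLAU (urokinase) and PLAT (tissue plasminogen activator) had 136 to 924 CPM (median 358) and 216 to 353 CPM (median 280.2) and were not called. TFPI2, a serine protease inhibitor, was called with 72.1 and 62.9 CPM in donor 1, 88.2 and 78 in donor 2 and 34.7 and 33.6 in donor 3, and its relative TFPI, the inhibitor of tissue factor, had 36.6 to 49.4 CPM (median 42.3). F3, tissue factor itself, reached 2.06 CPM, and F8, clotting factor VIII, had 20.6 to 30.2 CPM (median 27).

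Of 12 vasoactive peptide genes written down, 6 could be matched to an identifier, and 3 of these were expressed. EDN1, the precursor of the vasoconstrictor endothelin 1, had 91.6 and 151 CPM in donor 1, 203 and 261 in donor 2 and 47.4 and 95.2 in donor 3, highest in donor 2 in each set and not called. NPPC, which encodes C-type natriuretic peptide, had 28.1 and 13.5 CPM in donor 1, 3.76 and 3.5 in donor 2 and 1.92 and 2.34 in donor 3 (log2 difference 3.26, edgeR adjusted p = 0.00525), and all 3 natriuretic peptide receptors were expressed (NPR1 217 to 372 CPM (median 284), NPR2 47.2 to 62.5 CPM, median 50.5). ADM, the gene of adrenomedullin, had 9.71 and 7.63 CPM in donor 1, 6.51 and 10.6 in donor 2 and 2.07 and 2.82 in donor 3 and lost its call without set 1 donor 3 (adjusted p up to 0.0825). EDN2 and UTS2 were at the floor. Of 4 tested genes 3 were called, 1 without set 1 donor 3, 2 without either donor 2 culture and 3 otherwise.

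Of 52 matched growth factor genes, 33 were expressed and 7 at the floor. The calls, 14 of 41 tested, were 34.1%, against 9.16% over all tested genes. INHBB, 1 of the 14, passed the filter through 2 libraries alone, so no excess is read from this count. CCN2 (connective tissue growth factor) had 841 to 1809 CPM (median 1379), the netrin NTN4 463 to 844 CPM (median 699.5), CCN1 185 to 617 CPM (median 286), TGFB1 168 to 244 CPM (median 196), BMP6 211 to 265 CPM (median 239) with a CV of 9.63%, PDGFB 63.2 to 142 CPM (median 123) and VEGFA 39.3 to 136 CPM (median 61.4). ANGPT1 and HGF, which reach ECs from neighbouring cells, and TGFA were at most 0.092, 0.0307 and 0.03 CPM, and the TIE2 antagonist ANGPT2 had 1.26 to 7.54 CPM (median 3.6), and its call was lost without set 1 donor 1, set 1 donor 3, set 2 donor 1 or set 2 donor 3 (adjusted p up to 0.0892). Of 41 tested genes 14 were called, 8 without set 1 donor 2, 9 without set 2 donor 2 and 13 to 17 in the other fits with 1 library less.

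Within the same family of ligands, donors ranked in opposite ways. PDGFC had 6.67 and 8.33 CPM in donor 1, 35.3 and 36.2 in donor 2 and 67.3 and 84.3 in donor 3 (log2 difference 3.36, edgeR adjusted p = 0.000942). PDGFA ran the other way, with 71.5 and 65.2 CPM in donor 1, 41.2 and 29.7 in donor 2 and 26.1 and 22.4 in donor 3 (log2 difference 1.48, edgeR adjusted p = 0.00821). The lymphangiogenic VEGFC had 60.7 and 41.3 CPM in donor 1, 76.3 and 60.9 in donor 2 and 17.6 and 15.1 in donor 3 (edgeR adjusted p = 0.00596) and FGF2 198 and 148 CPM in donor 1, 171 and 185 in donor 2 and 72.3 and 73 in donor 3 (edgeR adjusted p = 0.00571), both lowest in donor 3. GDF15, a stress-induced member of the TGF-beta family, had 51.9 and 22.6 CPM in donor 1, 186 and 147 in donor 2 and 33 and 30.9 in donor 3 and lost its call without either donor 2 culture (adjusted p up to 0.0968). ANGPTL4, an inhibitor of lipoprotein lipase, had 7.09 and 10.1 CPM in donor 1, 10.1 and 14 in donor 2 and 1.35 and 1.16 in donor 3 (edgeR adjusted p = 0.0038). WNT2B had 22.9 and 15.8 CPM in donor 1, 10.3 and 12.6 in donor 2 and 42.1 and 54.8 in donor 3, both donor 3 values on top (edgeR adjusted p = 0.00582).

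Of 19 matched cytokine and chemokine genes 15 were tested and 10 called (9.16% over all tested genes). As CXCL10 and CXCL12 passed the filter through the donor 2 cultures alone, the calls are not counted by donor. CXCL12 lost its call without set 1 donor 3 or set 2 donor 3. IL1A, the alarmin interleukin 1 alpha, had 6.6 and 2.22 CPM in donor 1, 243 and 91.8 in donor 2 and 0.809 and 0.334 in donor 3 (log2 difference 8.22, edgeR adjusted p = 0.00376; at most 0.024 with 1 library less). CSF2, the gene of GM-CSF, had 2.49 and 0.611 CPM in donor 1, 70.2 and 28.5 in donor 2 and 1.26 and 1.18 in donor 3 (edgeR adjusted p = 0.00577; at most 0.0403). CCL5 had 15.3 and 10.6 CPM in donor 1, 68.7 and 38.6 in donor 2 and 12.5 and 14.1 in donor 3 (edgeR adjusted p = 0.00951), and CXCL10, an interferon-induced chemokine, 0.0498 and 0.0278 CPM in donor 1, 3.31 and 3.16 in donor 2 and 0 and 0.077 in donor 3.

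The neutrophil chemokine CXCL8 had 155 and 71.4 CPM in donor 1, 491 and 273 in donor 2 and 56.2 and 65.3 in donor 3 and lost its call without set 1 donor 2 or set 1 donor 3 (adjusted p up to 0.117), and CXCL2 had 23 and 17.3 CPM in donor 1, 112 and 92 in donor 2 and 8.93 and 24.4 in donor 3 and lost its call without either donor 2 culture (adjusted p up to 0.12). IL6 was low in donor 3 (6.17 and 3.3 CPM in donor 1, 7.97 and 3.89 in donor 2 and 0.869 and 0.667 in donor 3), and its call was lost without set 1 donor 2, set 1 donor 3 or set 2 donor 3 (adjusted p up to 0.0969); IL18 had 5.53 and 1.86 CPM in donor 1, 20.8 and 9.66 in donor 2 and 2.04 and 1.98 in donor 3, and its call was lost without set 1 donor 2, set 1 donor 3, set 2 donor 2 or set 2 donor 3 (adjusted p up to 0.214). CXCL14 was called with 4.65 and 7.16 CPM in donor 1, 2.69 and 4.42 in donor 2 and 0.27 and 0.154 in donor 3. The count of called genes was 4 without set 1 donor 2, 6 without set 2 donor 2 and 7 to 12 otherwise. CCL2, the monocyte chemoattractant, had 183 and 56.2 CPM in donor 1, 1325 and 758 in donor 2 and 598 and 212 in donor 3. It was highest in donor 2 in each set but was not called. IL33 (275 to 758 CPM, median 623) and MIF (142 to 181 CPM, median 162) showed no such order. MIF had a CV of 9.24%.

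Among adhesion molecules 3 of 12 tested genes were called, 1 without either donor 2 culture and 3 otherwise. VCAM1, which binds leukocytes, had 1354 and 722 CPM in donor 1, 2615 and 2046 in donor 2 and 659.8 and 383 in donor 3, and its call was lost without set 1 donor 2, set 2 donor 2 or set 2 donor 3 (adjusted p up to 0.166). ICAM1 had 484 to 969 CPM (median 614) and was not called. The share called was 25% of the tested group, against 9.16% over all tested genes. JAM3, a junctional adhesion molecule, was lowest in donor 1 (26.3 and 21 CPM in donor 1, 66.7 and 58.6 in donor 2 and 87.2 and 76.5 in donor 3; edgeR adjusted p = 0.00287), whereas its relatives F11R and JAM2 had 87 to 148 CPM (median 124) and 24.4 to 38.3 CPM (median 28.9). CDH2 (N-cadherin) had 0 counts in all 6 libraries beside the level of CDH5 given above.

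Basement membrane genes had the lowest median CV of the secreted groups, 16.4% over 14 members with a mean of at least 10 CPM. Of 22 matched genes 14 were expressed, and 1 of 15 tested was called. NID2 had 1956 to 2779 CPM (median 2240.4), LAMC1 1999 to 2551 CPM (median 2212), LAMB1 1705 to 2185 CPM (median 1943), COL4A2 1031 to 1810.2 CPM (median 1313), LAMA5 853 to 1816 CPM (median 985), LAMA4 884 to 1256 CPM (median 1051) and NID1 977 to 1225 CPM (median 1026). Laminins with alpha 4 or alpha 5, beta 1 and gamma 1 chains are the typical endothelial forms. The epithelial chains were low or absent, LAMB3 at most 0.0597 and LAMA3 at most 1.18 CPM; LAMA3 was the called gene (1.1 and 1.11 CPM in donor 1, 0.0597 and 0.0307 in donor 2 and 1.14 and 1.18 in donor 3). COL4A3 to COL4A6 stayed under 1 CPM, and COL15A1 at most 0.12 CPM. The summed level of the list was 23003 to 28784 CPM.

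Of 45 matched interstitial matrix genes 34 were expressed and 37 tested, and 15 were called, 11 to 17 with 1 library less. Besides FN1, THBS1 and TNC, the genes with the most reads were FBLN5 (1594 to 3223 CPM, median 2103), LTBP2 (1225 to 2449.6 CPM, median 1648), COL5A2 (986 to 2248 CPM, median 1279), COL12A1 (879.9 to 2778 CPM, median 1139) and FBN1 (870.4 to 1591 CPM, median 951). FBLN5 and FBN1 encode parts of elastic fibres, and ELN, elastin itself, had 2.45 to 33.4 CPM (median 9.02). The summed level was 63087 to 100080 CPM. The share called, 15 of 37 tested, was 40.5%, against 9.16% over all tested genes. The median CV of the 30 members with a mean of at least 10 CPM was 35%, against 12% over all genes at that level. The highest sum was in the set 2 culture of donor 1, where FN1 was highest too.

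POSTN, the matricellular protein periostin (chromosome 11, 13225183 to 13258973), showed the widest difference of the group: 532 and 345 CPM in donor 1, 52.6 and 24.4 in donor 2 and 3.62 and 1.77 in donor 3. Its log2 difference was 7.33 (edgeR adjusted p = 0.00228; at most 0.0135 with 1 library less), and the 3 donors did not overlap. FBLN1 (fibulin 1) had 597 and 704 CPM in donor 1, 39.9 and 51.7 in donor 2 and 138 and 261 in donor 3, highest in donor 1 in each set (edgeR adjusted p = 0.00358). EMILIN1 and LTBP4, both of elastic fibres, had 147 and 136 CPM in donor 1, 25.1 and 30.3 in donor 2 and 167 and 153 in donor 3 and 137 and 129 CPM in donor 1, 31.1 and 30.2 in donor 2 and 51.3 and 41.8 in donor 3 (edgeR adjusted p = 0.000797 and 0.00115). TGFBI was lowest in donor 1, with 7.32 and 6.83 CPM in donor 1, 42.4 and 42.8 in donor 2 and 38.5 and 37 in donor 3 (edgeR adjusted p = 0.000314), its 2 donor 1 values below the other 4. The network collagen gene COL8A1 had 1166 and 1235 CPM in donor 1, 397 and 399 in donor 2 and 483 and 838 in donor 3, and its call was lost without set 1 donor 1, set 1 donor 2, set 2 donor 1 or set 2 donor 2 (adjusted p up to 0.135). COL12A1 was highest in donor 2 (2124 and 2778 CPM) and lost its call without either donor 2 culture (adjusted p up to 0.0932).

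Proteases and their inhibitors held 3 calls among 24 tested genes, 1 without set 2 donor 2, 2 without set 1 donor 2 and 3 to 5 otherwise. The 3 calls were 12.5% of the tested group, beside 9.16% over all tested genes. CTSD had 1093 to 1967 CPM (median 1235), CTSB 782 to 1205 CPM (median 1062), MMP14 516 to 1069 CPM (median 697), TIMP3 307 to 1297 CPM (median 595) and TIMP1 101 to 266 CPM (median 141). MMP2, the gelatinase activated by MMP14, had 676 and 617 CPM in donor 1, 2157 and 2365 in donor 2 and 960.2 and 857 in donor 3 (log2 difference 1.82, edgeR adjusted p = 0.00159; at most 0.0185 with 1 library less). MMP1 and MMP9 were at or near 0, at most 0.03 and 0.0597 CPM. ADAMTS1, a versican-cleaving protease, had 167, 155 and 78 CPM in the set 1 cultures of donors 1 to 3 and 7.35, 35.5 and 33 in set 2, all set 2 values below all of set 1; it was called neither by donor nor between sets (edgeR adjusted p = 0.138 with the donor as a block). ESM1, the endothelial proteoglycan endocan, had 307 to 1079 CPM (median 824) and IGFBP7 328 to 565 CPM (median 464). IGFBP6 was highest in donor 3 (44.7 and 46.8 CPM in donor 1, 27.2 and 27.1 in donor 2 and 70.3 and 92.3 in donor 3; edgeR adjusted p = 0.0039), and IGFBP2 had 0 counts.

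In several gene families, reads fell on a few members; these levels are CPM, not corrected for transcript length. Of the 6 actins, ACTG1 and ACTB (1667 to 2395 CPM, median 1902) were expressed and the 4 muscle actins ACTA2, ACTC1, ACTG2 and ACTA1 reached at most 0.239, 0.0513, 0.03 and 0.03 CPM. Of 8 matched connexins, GJA5, GJA1 (459.8 to 856 CPM, median 717), GJA4 and GJC1 (18.7 to 52.7 CPM, median 30.1) were expressed, while GJB1 reached at most 0.0307 CPM, and GJA3 had no read in any library. Where GJA5 was low, in donor 3, GJA1 (connexin 43) had 763 and 677 CPM, against 758 and 856 in donor 1 and 459.8 and 490.02 in donor 2. Of 16 matched claudins CLDN6 was expressed (1.64 to 9.27 CPM, median 2.54) and highest in donor 1 (9.18 and 9.27 CPM); CLDN5, the endothelial claudin, is paired with no identifier. In caveolae, EHD2 (906 to 1266 CPM, median 1128), CAVIN1 (582 to 1138 CPM, median 903) and CAV1 (382 to 837 CPM, median 744) were expressed; edgeR called 0 of 7 tested genes (5 at an unadjusted p under 0.05) and DESeq2 called 1, and the muscle form CAVIN4 stayed at or under 0.337 CPM. SLC2A13 (44.3 to 63.2 CPM, median 52.7) and SLC2A10 (10.6 to 19.8 CPM, median 15.4) had the most reads of the matched glucose transporter family, in which the gene of GLUT1 is not paired with an identifier, and TMSB10 and TMSB4X had 1644 to 2158 CPM (median 1949) and 875 to 1178 CPM (median 1036).

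Some groups were called in no member. With 9.16% called over all tested genes, 0 calls in groups of 14 and 9 genes is not read as a trait of the groups. None of 14 reference genes used for quantitative PCR was called by edgeR, and 0 were called in the DESeq2 fit; 5 had an unadjusted p under 0.05. GUSB, POLR2A and RPL4 had CVs of 9.56%, 5.55% and 6.69%, whereas GAPDH (2130.3 to 3717 CPM, median 2604), RPLP0 (879 to 1609 CPM, median 1191) and HPRT1 (15.1 to 22.2 CPM, median 17.4) had 21.4%, 22.5% and 17.9%. Genes of the cell cycle were expressed in all 9 matched members, with TOP2A at 101 to 188 CPM (median 148), MCM2 at 62.7 to 121 CPM (median 84.2) and PLK1 at 24.9 to 84.9 CPM (median 47). None of the 9 was called by edgeR, 1 in the DESeq2 fit, and 7 had an unadjusted p under 0.05; without the set 2 culture of donor 3 the edgeR count was 5. The lowest level of TOP2A, MCM2 and PLK1 was in the set 1 culture of donor 2 and the highest in the set 1 culture of donor 3.

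Over all 8442 genes with a mean of at least 10 CPM, the CV across the 6 libraries had a 10th percentile of 5.65%, a median of 12% and a 90th percentile of 32%. In 3195 genes (37.8%) it was under 10%, and in 340 (4.03%) over 50%. The 10 named genes with a mean of at least 50 CPM and the lowest CV were MYL12A, PRP4K, DHX8, ANKIB1, PIAS2, STRAP, ACTR10, SART3, ITCH and PRMT7, with CVs of 1.14% to 1.65%. MYL12A, a regulatory light chain of non-muscle myosin, had 833 to 861 CPM (median 847) and a CV of 1.14%, against 0.576% from counting error alone. STRAP, a component of the SMN complex, had 1.52% against 1.43%. For the other 8 the CV was below the CV that counting error alone would give, for example 1.17% against 1.87% for the splicing helicase DHX8. With 6 libraries such low values are in part a product of choosing the lowest.

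**Figure D4:**
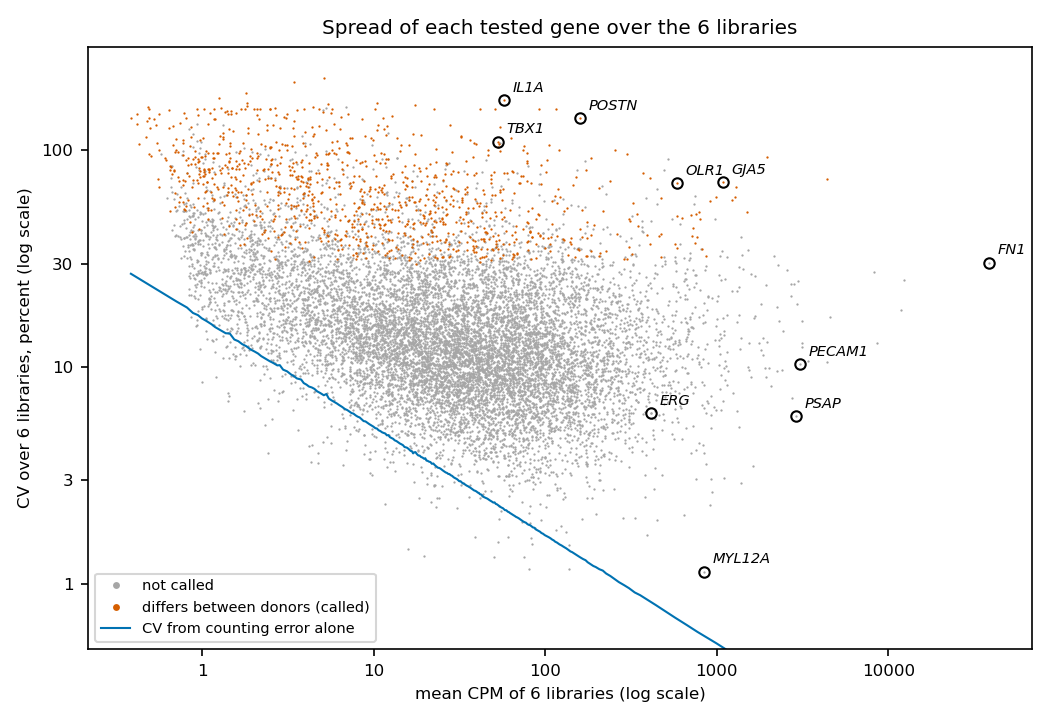
CV over the 6 libraries against mean CPM for the 11453 tested genes (both axes logarithmic), with the 1049 genes called different between donors in orange and the CV expected from counting error alone as a blue line. Called genes lie at high CV by construction of the 2-fold threshold; GJA5 combines many reads with a wide spread, while PSAP, ERG and MYL12A lie low.

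The 15 named genes with the widest difference between donors, among called genes with a mean of at least 10 CPM, were IL1A, POSTN, LRRTM4, MX1, SCG2, TNFAIP6, LYNX1, COL1A2, ARNT2, NPY1R, ATP9A, TBX1, CSF2, PTGFRN and PEG10, with log2 differences of 8.22 to 4.91. Their order follows from this choice and carries no test of its own. MX1, an interferon-induced antiviral GTPase on chromosome 13, 204843049 to 204868927, had 72.6 and 72.5 CPM in donor 1, 105 and 94.8 in donor 2 and 1.11 and 1.46 in donor 3 (edgeR adjusted p = 0.000147): donors 1 and 2 lay close together and donor 3 was near 1 CPM. SCG2, a secretogranin, had 0.622 and 0.333 CPM in donor 1, 32.8 and 40.1 in donor 2 and 1.14 and 1.72 in donor 3, and TNFAIP6, a hyaluronan-binding protein made in inflammation, 1.24 and 0.361 CPM in donor 1, 42.9 and 16.8 in donor 2 and 0.629 and 0.359 in donor 3; both were high in donor 2 alone. NPY1R, a receptor of neuropeptide Y, had 2.41 and 2.05 CPM in donor 1, 38.3 and 23.6 in donor 2 and 0.749 and 0.693 in donor 3. PTGFRN, a regulator of the prostaglandin F2 receptor, had 2.71 and 0.999 CPM in donor 1, 85.3 and 61.1 in donor 2 and 11.2 and 5.26 in donor 3.

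Other genes of the 15 were low in 1 donor. ATP9A, a lipid flippase, had 0.821 and 0.833 CPM in donor 1, 32.3 and 34.8 in donor 2 and 18.3 and 25.2 in donor 3, and the transcription factor gene ARNT2 1.39 and 0.749 CPM in donor 1, 59.7 and 39.7 in donor 2 and 33.6 and 22 in donor 3, both lowest in donor 1, as was LYNX1 (0.722 and 0.389 CPM in donor 1, 30.3 and 36.1 in donor 2 and 8.48 and 10.2 in donor 3). LRRTM4, a leucine-rich repeat transmembrane gene, had 23.5 and 29.9 CPM in donor 1, 0.269 and 0.307 in donor 2 and 3.59 and 4.8 in donor 3. PEG10, an imprinted gene of retrotransposon origin, lies on chromosome 9, 74474121 to 74486983, and COL1A2 on chromosome 9, 74174484 to 74210407; both were lowest in donor 2. PEG10 had 39.4 and 104 CPM in donor 1, 2.75 and 2.85 in donor 2 and 33.4 and 135 in donor 3, and the call was lost without either donor 2 culture (adjusted p up to 0.21). The call of COL1A2 behaved likewise, as given above. In each of the other 13 the call held in all 6 fits with 1 library less.

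**Figure D5:**
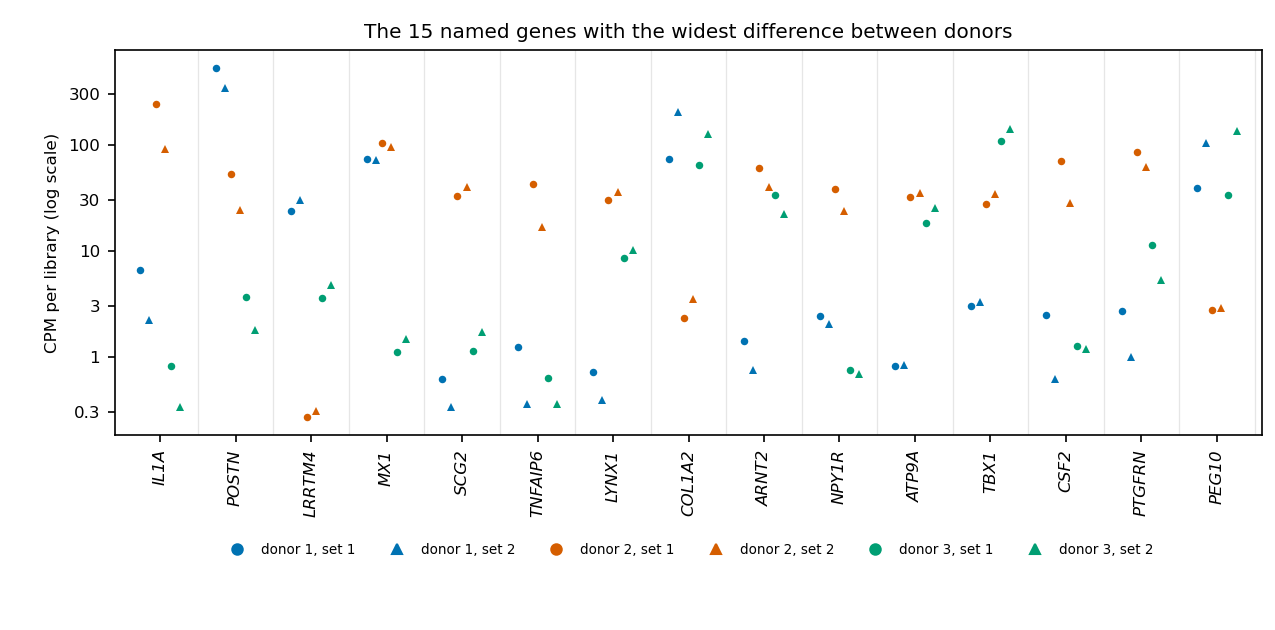
CPM per library (log axis; colour marks the donor, shape the set) of the 15 named genes with the widest difference between donors. For most genes the 2 cultures of a donor lie side by side. In IL1A, MX1, SCG2, TNFAIP6, LYNX1, ARNT2, NPY1R, ATP9A, CSF2 and PTGFRN both donor 2 values are above the other 4.

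EIF1AY and KDM5D, the 2 matched genes of the Y chromosome list, were counted in donor 2 alone. EIF1AY had 17.2 and 16.9 CPM there and KDM5D 5.97 and 5.98, and both had 0 counts in the 4 cultures of donors 1 and 3. These reads part donor 2 from donors 1 and 3, and do not part donors 1 and 3 from each other.

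Among antigen presentation genes, TAP1 had 55.9 to 116 CPM (median 63.3), TAPBP 71 to 102 CPM (median 89.3) and CIITA, the master regulator of class II genes, 14.7 to 33.5 CPM (median 23.7); TAP1 was highest in donor 2 in each set (116 and 108 CPM) but was not called. CD74, the class II invariant chain, had 3.38 and 3.36 CPM in donor 1, 6.71 and 11.8 in donor 2 and 1.86 and 2.95 in donor 3 and lost its call without set 2 donor 2 (adjusted p up to 0.134). It was the 1 called gene of 11 tested. Of 23 antigen presentation genes written down, 12 could be matched. The 11 without an identifier include SLA-1, SLA-2, SLA-3, SLA-DRA and B2M, which were not analysed here.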

How the data were processed

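Total RNA of the cultured ECs was sequenced single-end from libraries made with a TruSeq kit. The authors aligned them with STAR (build Sscrofa11.1), kept uniquely placed reads alone and deposited raw counts per gene from featureCounts, over merged exons of the protein-coding isoforms; the submitters' processing notes give STAR 2.4 and featureCounts 1.4.6. Genes with near-identical copies can therefore be undercounted, and strand was not stated. Of 21153 gene identifiers, 14572 (68.9%) were paired with a symbol through the gene table used here, and 107 of 721 symbols written for 46 lists found no identifier. Transcript lengths were not used here. Depth was 32020939 to 41058902 counts per library; shares of reads and the floor cover counting error only.

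From the deposited counts, CPM was computed on TMM-scaled library sizes of the 6 libraries. Donor differences were tested with edgeR 4.0.16 (quasi-likelihood F test, donor term with 2 degrees of freedom, Benjamini-Hochberg over 11453 genes) in R 4.3.3; the set was not in the model. Set 2 was also compared with set 1, without and with the donor as a block (the same pig supplied both cultures). Correlations and variance shares used log2(CPM + 1). Alternatives were DESeq2 1.42.0 (likelihood ratio test), another scaling, other filters, the set as a term and each library left out; in the latter a donor with 1 library is assumed to vary like the others. The 6 other libraries, at 2 and 80 dyne/cm2, were not used here.

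The members and lists were chosen with earlier results of these data known. Named are the 20 genes with the highest mean CPM, up to 8 members with the highest mean CPM of each list, members that mark a cell type, the members of paralogue families, the 10 steadiest genes (mean of at least 50 CPM) and the 15 with the widest donor difference (mean of at least 10 CPM). List members outside these, called or not, and JAG1, GJA4 and ADAMTS1 for their set values, were named after their values were seen. A few genes of the lists are not reported here.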

Additional observations from a re-analysis of the deposited data

Results flagged for a closer look

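Over the 6 libraries, 312 library measures, summed list levels and named genes were examined. In 20 of them, 1 value was set apart from the other 5. Its gap to the nearest neighbour was above Dixon's 95% critical share of the range. The 1 in 20 that chance would set apart holds for independent values from 1 normal distribution. Cultures of 1 donor are not independent, and list sums include named genes, so the 20 are not set against that rate. No test stands behind these values, and their causes were not tested.

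In the set 2 culture of donor 1, several matrix values stood apart. The summed interstitial matrix was 100000 CPM (others 63100 to 76800) and the summed fibroblast list 720 (others 129 to 306). COL3A1 had 500 CPM (others 109 to 216), FBN1 1590 (870 to 1100) and ELN 33.4 (2.45 to 11.5). NPR3 was at 173 CPM (26.4 to 74.4) and ADGRF5 at 9.08 (0.629 to 3.38).

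In the set 1 culture of donor 1, DLL4 was at 215 CPM (others 15.9 to 87.1), CCN1 at 617 (185 to 334), INSR at 32.3 (4.63 to 11.4), NFATC1 at 134 (28.2 to 66.3) and HAND2 at 71.5 (19.4 to 36.4). The set 1 culture of donor 3 held the highest TNC, 12700 CPM (6540 to 7940), LYVE1, 2.64 (0.0833 to 0.744), CSPG4, 5.66 (0.194 to 2.18), and pericyte sum, 7.07 (1.66 to 3.34).

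In the set 2 culture of donor 3, CDH5 was lowest at 1340 CPM (others 1770 to 2010), while TBX18 and ID3 were highest at 28.7 (14 to 18.3) and 204 (153 to 165). F2RL1 was highest in the set 1 culture of donor 2 at 44.3 CPM (1.93 to 14.9).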

How the results depend on the processing

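With 1 library left out, the count of genes called different between donors lay between 435 (without set 1 donor 2) and 1032 (without set 2 donor 3), and it was 513 without set 2 donor 2; the cause was not tested. The adjusted p alone, with no fold threshold, gave 1696 genes in place of 1049. DESeq2 called 1335 genes, of which 1044 were shared with the 1049, the model with the set as a term 1404 (1045 shared), no filter on low counts 1330, filterByExpr 1232, at least 10 counts in every library 861 and relative log expression 1050. The number of expressed genes was 7768 at 10 CPM and 11164 when 3 of 6 libraries had to pass, against 10598. The variance share of the donor was 80.3% to 82.2%, and the share of reads on the 10 most abundant genes 9.75% to 10.3% with 1 library left out. Of 121 genes, 46 kept their call in all 6 fits with 1 library less and 68 lost it in at least 1; the other 7 could be tested in 4 of the 6 and kept it there. The alternative without genes of the mitochondrial genome was not run, as no such gene could be identified by symbol. Set 2 was compared with set 1, a test added after the data were seen, over 11453 genes. The study also compared the 2 sets, as an internal control, and reported some differentially expressed genes. Its filter differed, so the counts here are not set against it. Without a block edgeR called 0 genes (480 at an unadjusted p under 0.05); with the donor, which the replicate number names, as a replicate block it called 1, IL1A, lower in set 2 in all 3 donors (log2 difference 1.44, adjusted p = 0.0263), and 2200 had an unadjusted p under 0.05.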
